A study of Mus musculus with 12 samples.

Results

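The serpins are a superfamily of secreted and intracellular protease inhibitors, with some members that have turned into hormone carriers or chaperones, and their transcripts were followed in 12 libraries of polyadenylated RNA from mouse liver. Members were the genes whose symbol starts with Serpin in the authors' filtered table of RPM (reads scaled by library total), without Serpinc1, Serpind1, Serpinf2, Serping1 and the names that contain -ps. This rule gave 37 of the 17311 genes in that table, and 21 of the 37 lie on chromosome 12 between 103614786 and 104414329 (GRCm38, GENCODE M21). Another 5 lie on chromosome 13, 5 on chromosome 1 and 2 on chromosome 3.

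Of the 5 groups, peritumoral hepatocytes (3 libraries) came from around liver tumours that grew for 8 weeks after hydrodynamic injection, at 8 weeks of age, of plasmids for the transposase SB11 (1 µg), the Notch fragment myc-NICD (20 µg) and the kinase myr-ha-Akt (4 µg). Untreated hepatocytes (3 libraries) were set against them, and all 6 carry the genotype label Lats1tm1.1Jfm/RjoJ; Lats2tm1.1Jfm/RjoJ and WT in their titles, with an age label of 8 weeks. For peritumoral mice this label matches the age at injection, before 8 weeks of tumour growth. Whether both groups were of the same age at harvest is not given. Whether Cre was present, which promoter drove the plasmids and which hepatocytes took them up is information the sources used here do not give. The other groups were livers of CD-1 IGS mice, taken 24 h (2 libraries) and 48 h (2 libraries) after 1 injection of thioacetamide (TAA), a toxin that hepatocytes activate, and livers of control mice (2 libraries), all labelled as 8 weeks old. The labels describe every library as hepatocytes from a Percoll gradient, whereas the design text calls the TAA and control libraries livers.

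A serpin inhibits a serine or cysteine protease by offering a bait loop. Once the protease cuts the loop, the serpin changes shape and holds the protease in a covalent complex, which receptors such as Lrp1 clear. The liver secretes most of the serpins in plasma, among them alpha-1-antitrypsin (the Serpina1 genes in mouse) and relatives of alpha-1-antichymotrypsin (the Serpina3 genes), while the Serpinb genes encode inhibitors that mostly stay inside cells.

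Library totals ran from 9640845 to 18522324 counts, and 3 counts corresponded to between 0.162 and 0.311 RPM. Replicates of a group differed by more than sampling noise, no label says that they came from separate animals, and p-values therefore measure only the spread between these libraries. Some libraries stand apart. Peritumoral replicate 2 carried Xist and no Ddx3y, whereas the other 5 hepatocyte libraries carried Ddx3y. The 6 bile duct markers summed to 1074, 10114 and 749 RPM in peritumoral replicates 1, 2 and 3, against 33.3 to 50.5 RPM in untreated hepatocytes. Transcripts of 8 pancreas genes summed to 7.43 and 6.43 RPM in the 24 h livers and 2744 and 11143 RPM in the 48 h livers, against 5561 and 50.3 RPM in control replicates 1 and 2. All 6 liver libraries carried Xist.

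Serpin members took up 2.44%, 2.59% and 2.90% of all counts in peritumoral hepatocytes and 3.41%, 3.78% and 5.06% in untreated hepatocytes. In livers the share was 3.42% and 3.47% at 24 h, 2.45% and 2.35% at 48 h, and 2.14% and 2.95% in controls. Most of these counts came from a few genes. Per kilobase of exon, Serpina3k had the highest mean level of the superfamily in peritumoral hepatocytes (4446 RPKM) and in all 3 liver groups (8400.0 RPKM at 24 h, 6646 at 48 h and 6611 in controls). In untreated hepatocytes Serpina1e came first with 8407 ± 2701 RPKM and Serpina3k second with 7722 ± 1315 RPKM (SD, n = 3), a gap smaller than either SD.

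In peritumoral hepatocytes 12 of the 30 serpin genes that could be tested were higher than in untreated hepatocytes and none was lower, at an adjusted p under 0.05 in edgeR's quasi-likelihood test (Benjamini-Hochberg over all genes). Over all 13442 genes tested, 19% were higher and 10.2% lower (29.2% together). DESeq2 called 2 serpin genes lower, and 16 of the 30 had an unadjusted p under 0.05. The median log2 fold change was 0.50 over the serpin genes and -0.02 over all genes. Without untreated replicate 1 the number higher was 7, and without untreated replicate 2 it was 5, whereas it was 13 without peritumoral replicate 2. The 7 members not tested were too low for the count filter, and a low member that passed only through the group in which it was high had to differ. Serpina3c, Serpina3h, Serpina3i, Serpinb2 and Serpine2, all under 10 counts in each untreated library, are such members. Serpinb1a, with 11, 11 and 9 counts there, also needed the peritumoral libraries to pass the filter.

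After TAA the serpin genes went both ways. At 24 h, 13 of 34 tested genes were higher and 7 lower than in control livers, where 21.3% and 20.5% (41.8% together) of all 13497 genes were. At 48 h, 12 were higher and 12 lower, where 25% and 23.9% (48.9% together) of all genes were. The serpin median log2 fold change was 0.12 at 24 h and -0.39 at 48 h, against 0.02 and -0.03 over all genes. Both comparisons used the same 2 control libraries. Here too, a low member that passed the count filter only through the TAA libraries had to differ. Serpina3f, Serpina5, Serpinb2, Serpinb6b, Serpinb9b and, at 48 h, Serpini1 are such rises, all under 10 counts in each control library. Serpina3i, with 12 and 10 counts in controls, also needed the TAA libraries to pass the filter. With library totals alone in place of TMM factors, the median of all genes moved to 0.53 at 24 h and 0.68 at 48 h, and 17 serpin genes were called higher and 4 lower at 24 h, and 15 higher and 5 lower at 48 h. The fold changes of the named genes are drawn by subfamily in the plot of 3 comparisons.

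**Figure D1:**
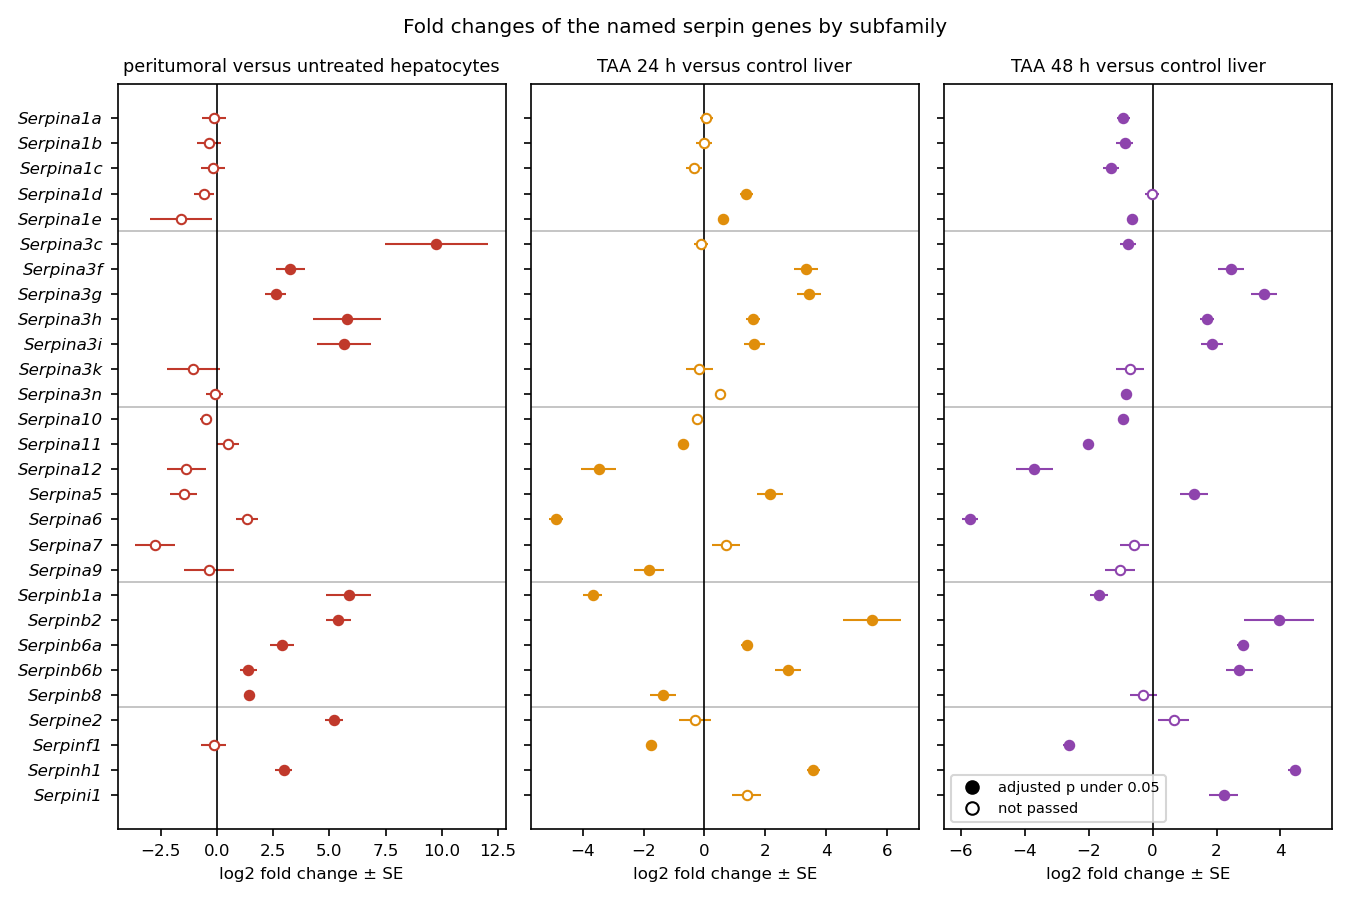
Log2 fold changes (x axes, points, bars ± SE) of 28 named serpin genes (rows) in 3 comparisons (panels), filled where the adjusted p was under 0.05. The 12 filled points of the left panel all lie to the right of 0, whereas 48 h after TAA filled points lie on both sides; Serpini1 was not tested in hepatocytes.

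The Serpina1 genes encode alpha-1-antitrypsin, the main plasma inhibitor of neutrophil elastase, which mice carry as several near-identical copies. None of the 5 copies passed the test in peritumoral hepatocytes, 2 were higher and none lower at 24 h, and 4 were lower at 48 h. Of all genes tested, 21.3% were higher and 20.5% lower at 24 h, and 23.9% were lower at 48 h. The copies share much sequence, as 58.5% of the 100-base stretches of Serpina1c, 42.8% of Serpina1a, 29.3% of Serpina1d, 14.8% of Serpina1b and 14.4% of Serpina1e also occur in other genes. How the authors' counting split such reads is not given, so values of single copies are uncertain. The copies also share sequence upstream of their starts. A run of 55 bases is identical upstream of all 5 in the RefSeq promoter table (GRCm38.p6), where only bases before each start were compared and the run of Serpina1d ends at its start. It is shown because the 5 promoters cannot be told apart in it.
Serpina1a (chr12:103863625-103863679, minus strand): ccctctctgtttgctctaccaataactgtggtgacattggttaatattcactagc
The same run lies at chr12:103738200-103738254 for Serpina1b, chr12:103904962-103905016 for Serpina1c, chr12:103773634-103773688 for Serpina1d and chr12:103956960-103957014 for Serpina1e, all on the minus strand.

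The make-up of Serpina1 counts differed between libraries. Serpina1e supplied 3.20%, 55.5% and 49.6% of Serpina1 counts in peritumoral replicates 1, 2 and 3, against 56.2%, 60.3% and 63.3% in untreated hepatocytes. In the CD-1 livers it supplied 1.97% and 1.80% at 24 h and 1.46% and 1.68% at 48 h, against 1.39% and 1.25% in controls. The Serpina1e level was accordingly 328, 6133 and 8648 CPM in the 3 peritumoral libraries, against 10406, 11853 and 23584 CPM in untreated hepatocytes (log2 fold change -1.60 ± 1.38, adjusted p = 0.419), and the groups did not overlap. CPM here are TMM-scaled, separately for hepatocytes and livers. Peritumoral replicate 1 is the low one. It carried Ddx3y, and it also had the highest Cyp4a12a, a male-biased liver gene, of the peritumoral libraries (342, 0.166 and 0.692 CPM, against 292, 318 and 626 CPM in untreated hepatocytes).

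**Figure D2:**
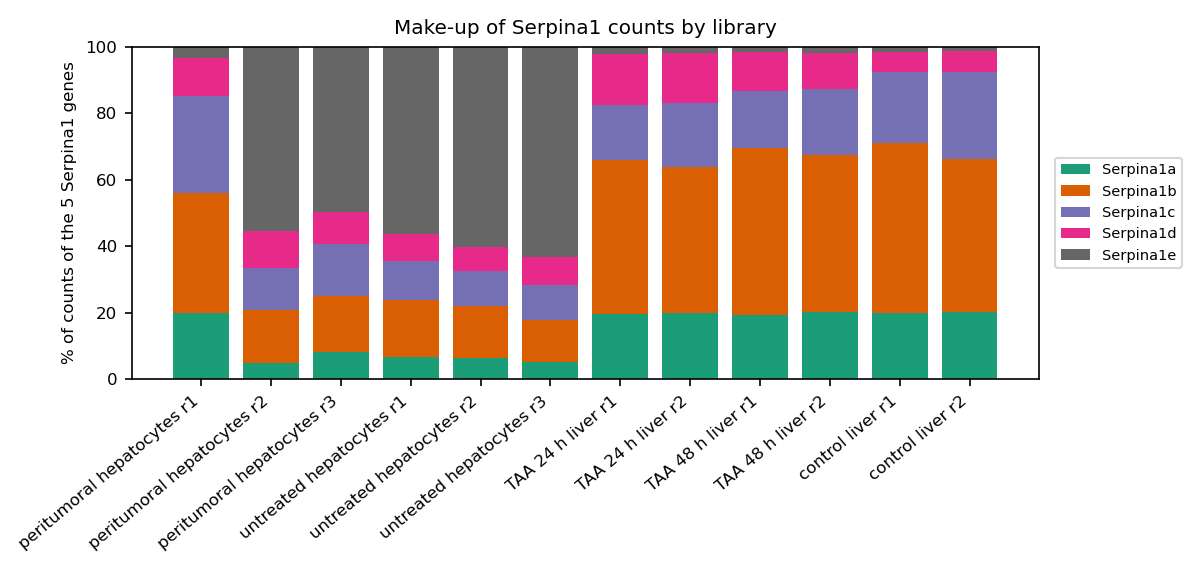
Share of the summed counts of the 5 Serpina1 genes (y axis, percent) that each gene supplied, in each of the 12 libraries (x axis, 1 stacked bar per library). Serpina1e takes 3.20%, 55.5% and 49.6% in peritumoral replicates 1, 2 and 3, against 56.2%, 60.3% and 63.3% in untreated hepatocytes, and under 2% in each liver library.

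Serpina1d stood out after TAA. It had 1770.2 and 1747 CPM at 24 h and 761 and 579.8 CPM at 48 h, against 579 and 776 CPM in control livers. Both 24 h libraries lay above both controls, and the 48 h libraries overlapped them. Its log2 fold change was 1.38 ± 0.22 at 24 h (adjusted p = 0.00365) and -0.02 ± 0.21 at 48 h (adjusted p = 0.960), and with library totals alone the 48 h value was 0.70, beside a median of 0.68 over all genes. Its share of Serpina1 counts was 15.5% and 15% at 24 h, 11.8% and 11.1% at 48 h and 6.01% and 6.39% in controls. Serpina1e also rose at 24 h, by 0.60 ± 0.12 on the log2 scale (adjusted p = 0.00867), a call lost without 24 h replicate 1 (adjusted p = 0.0545).

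The calls of the 4 falls at 48 h depended on the scaling. Serpina1c had 1098 and 1039.9 CPM at 48 h, against 2081 and 3189 CPM in controls (log2 fold change -1.30 ± 0.26, adjusted p = 0.00633). For Serpina1a, Serpina1b and Serpina1e the log2 fold changes were -0.92, -0.88 and -0.65 with TMM. With library totals alone they were -0.20, -0.16 and 0.07, and that of Serpina1c was -0.59, none of them called, and all 4 lay below the median of all genes. The Serpina1a call was lost without control replicate 2 (adjusted p = 0.0504) or 48 h replicate 2 (adjusted p = 0.0759), and that of Serpina1b without any 1 of the 48 h and control libraries (adjusted p between 0.0596 and 0.158).

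The Serpina3 genes, mouse relatives of alpha-1-antichymotrypsin, include copies that rose in all 3 comparisons with an untreated or control group: Serpina3f, Serpina3g, Serpina3h and Serpina3i. Serpina3c also rose in peritumoral hepatocytes. There 5 of 8 tested Serpina3 genes were higher and none lower, where 19% and 10.2% of all genes were. Of these, Serpina3c, Serpina3h and Serpina3i passed the count filter only through the peritumoral libraries. At 24 h 4 of 9 were higher and none lower, where 21.3% and 20.5% of all genes were. At 48 h 4 were higher and 2 lower, where 25% and 23.9% of all genes were. Among these liver rises, Serpina3f and Serpina3i passed the count filter only through the TAA libraries. Serpina3 genes share at most 6.09% of their 100-base stretches with other genes, Serpina3k and Serpina3m overlap on the same strand (2.92% of the exon bases of Serpina3k), and Serpina3h is annotated as a transcribed pseudogene.

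Of the 29 members found in the RefSeq promoter table, 6 hold the motif TTCNNNGAA (N is any base, either strand read, a palindrome that STAT factors are known to bind) in the 300 bases around their start. By promoter, 9 of the 34 promoters of these members hold it, and 8.30% of all 32851 promoters do. Serpina3f, Serpina3g and Serpina3i are 3 of the 6, and Serpina11, which was called lower at both times after TAA, is another. Of the other motifs searched on both strands, TGANTCA (AP-1) was found in 9 of the 34 and in 7.81% of all promoters, CATTCC (TEAD) in 8 and in 14.7%, and CACGTG (E-box) in 0 and in 7.15%. In Serpina3f, Serpina3g and Serpina3i the TTCNNNGAA match runs into a block that Serpina3b, Serpina3c and Serpina3n hold without the match. The aligned windows are shown because they carry this difference, with the motif in capitals (GRCm38.p6, bases upstream of the RefSeq start).
Serpina3f (chr12:104214421-104214465, plus strand): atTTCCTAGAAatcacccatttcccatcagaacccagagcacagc
Serpina3g (chr12:104236112-104236146, plus strand): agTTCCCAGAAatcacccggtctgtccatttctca
Serpina3i (chr12:104263018-104263062, plus strand): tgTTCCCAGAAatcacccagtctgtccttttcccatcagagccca
Serpina3b (chr12:104127871-104127915, plus strand): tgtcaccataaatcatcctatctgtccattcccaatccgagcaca
Serpina3c (chr12:104153950-104153994, minus strand): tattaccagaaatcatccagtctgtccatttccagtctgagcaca
Serpina3n (chr12:104406583-104406627, plus strand): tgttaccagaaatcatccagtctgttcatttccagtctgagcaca
The window of Serpina3g is shorter because it reaches the start of the gene. A match describes letters only, and no binding was measured. Serpina3h, Serpina3k and Serpina3m have no entry in that table.

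Serpina3g had 25.3, 11.9 and 44.2 CPM in peritumoral hepatocytes, against 4.90, 4.00 and 4.32 CPM in untreated hepatocytes. Every peritumoral library was above every untreated one (log2 fold change 2.62 ± 0.47, adjusted p = 0.00970). After TAA it had 18.6 and 11.4 CPM at 24 h and 19.9 and 11.2 CPM at 48 h, against 1.44 and 1.30 CPM in control livers, a rise of 3.44 ± 0.40 at 24 h and 3.49 ± 0.40 at 48 h on the log2 scale (adjusted p = 0.00135 and 0.000888). Serpina3g encodes an inhibitor of cysteine cathepsins that is best known from T cells and bone marrow.

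Serpina3f behaved likewise. Its level was 22.3, 5.67 and 29.3 CPM in peritumoral hepatocytes, against 2.31, 1.10 and 2.59 CPM in untreated hepatocytes (log2 fold change 3.26 ± 0.65, adjusted p = 0.0141), and 4.18 and 3.23 CPM at 24 h and 1.81 and 2.13 CPM at 48 h, against 0.309 and 0.401 CPM in control livers. No library of a group overlapped with its controls. Control livers held only 3 and 4 counts of Serpina3f, which passed the count filter there only through the TAA libraries and so had to differ. Without untreated replicate 1 or 2 the peritumoral calls of Serpina3f (adjusted p = 0.0560 and 0.0596) were lost, and without untreated replicate 2 that of Serpina3g (adjusted p = 0.0509).

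Serpina3h and Serpina3i were led by 1 library in peritumoral hepatocytes. Serpina3h had 29.3, 0.994 and 2.19 CPM there, against 0.115, 0.290 and 0.157 CPM in untreated hepatocytes, and Serpina3i had 10.9, 1.86 and 0.981 CPM, against 0.115, 0.116 and 0 CPM. Peritumoral replicate 1 was the highest for both. Their log2 fold changes were 5.78 ± 1.51 and 5.65 ± 1.20 (adjusted p = 0.0300 and 0.0124), and 3.0 and 3.99 without that library. Both calls were lost without any 1 of the untreated libraries (adjusted p between 0.0882 and 0.114 for Serpina3h and between 0.0546 and 0.0607 for Serpina3i). In livers the replicates were closer: Serpina3h had 10.6 and 8.18 CPM at 24 h and 10.4 and 9.93 CPM at 48 h, against 2.99 and 3.20 CPM in controls (log2 fold change 1.60 ± 0.22 and 1.71 ± 0.22). For Serpina3i the log2 fold change was 1.64 ± 0.34 at 24 h and 1.85 ± 0.34 at 48 h, and its 24 h call was lost without control replicate 2 (adjusted p = 0.0561) or 24 h replicate 1 (adjusted p = 0.0669).

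Serpina3c spread widely within a group. It had 646, 0.538 and 241 CPM in peritumoral replicates 1, 2 and 3, against 0.288, 0.464 and 0.236 CPM in untreated hepatocytes. Replicates 1 and 3 were high, whereas replicate 2, the library with Xist, was low. The untreated libraries, all low, carried Ddx3y, and the liver libraries, given below, all carried Xist. The log2 fold change was 9.76 ± 2.29 (adjusted p = 0.0227), 8.46 without peritumoral replicate 1 and 10.37 without replicate 2. Without any 1 of the untreated libraries (adjusted p between 0.0741 and 0.0899), with the replicate block (adjusted p = 0.0929) or by limma on log2(RPM + 0.5) (adjusted p = 0.0727) the call was lost. The CD-1 livers held Serpina3c at 253 and 260.1 CPM at 24 h, 151 and 173 CPM at 48 h and 205 and 349.9 CPM in controls. Its fall at 48 h (-0.78 ± 0.24, adjusted p = 0.0356) was lost with library totals alone (-0.07) and without control replicate 2 or any 1 of the TAA libraries (adjusted p between 0.0528 and 0.157).

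The abundant copies gave smaller differences. Serpina3k had 9186, 7040.0 and 9259 CPM in peritumoral hepatocytes, against 13816, 15016 and 23974 CPM in untreated hepatocytes, and every peritumoral library lay below every untreated one. The test did not pass (log2 fold change -1.05 ± 1.18, adjusted p = 0.541), while DESeq2 gave -1.04 with an adjusted p of 0.00226. Serpina3n, an acute phase protein that inhibits granzyme B in mice, had 1164 and 1497 CPM at 24 h and 529.6 and 528 CPM at 48 h, against 888 and 984 CPM in control livers. It did not pass at 24 h (0.51 ± 0.17, adjusted p = 0.0553), was lower at 48 h (-0.82 ± 0.18, adjusted p = 0.00858) and was at -0.11 at 48 h with library totals alone. Without 24 h replicate 1 its 24 h rise passed (0.68, adjusted p = 0.0432), and without either 48 h library its 48 h fall did not (adjusted p = 0.0525 and 0.0521).

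**Figure D3:**
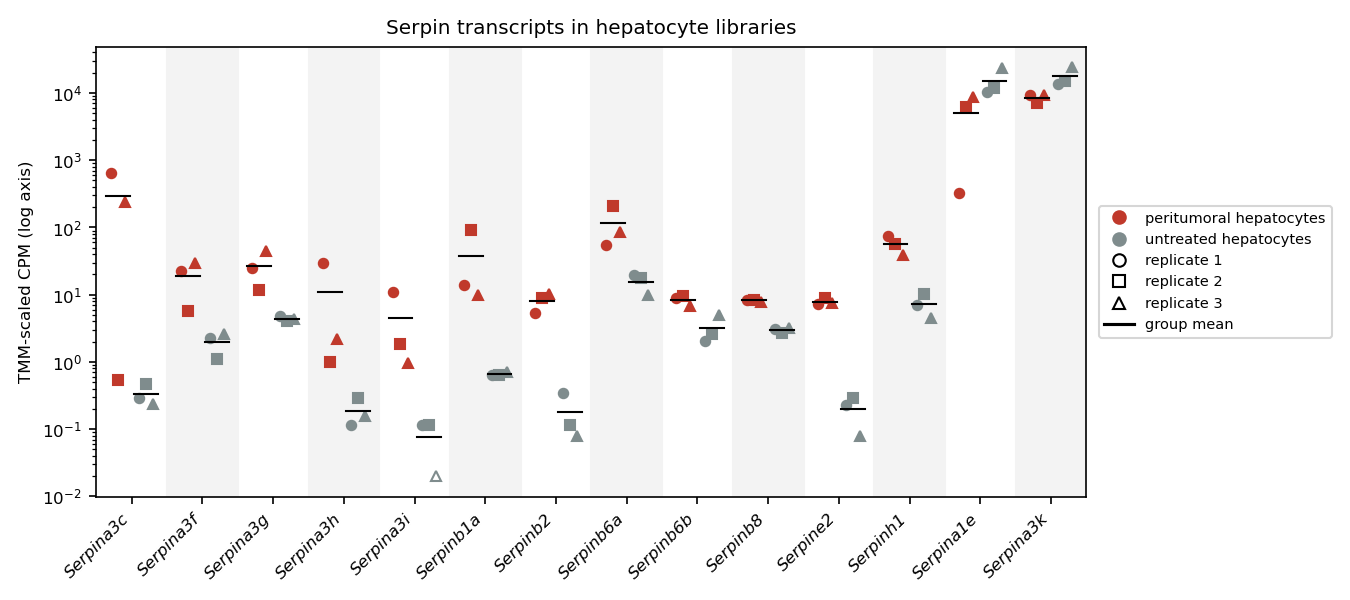
TMM-scaled CPM (y axis, log scale) of 14 serpin genes (x axis) in the 3 peritumoral and 3 untreated hepatocyte libraries, each replicate with its own symbol, lines at group means, an open symbol for a count of 0 drawn at the lower edge. Serpina3c has 646, 0.538 and 241 CPM within the peritumoral group, while the peritumoral and untreated values of Serpinb8 do not overlap. Those of Serpine2, which passed the count filter only through the peritumoral libraries, do not overlap either.

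Among the acute phase proteins, which the liver makes in inflammation, 6 of 7 (Hp, Lcn2, Orm1, Orm2, Saa1 and Saa2) rose at 24 h and 1, Lcn2, at 48 h, where Fgg fell, a fall not called with library totals alone. With library totals alone all 7 were higher at 24 h and 4 at 48 h. In peritumoral hepatocytes none of the 7 passed. Saa2, for example, had 1505 and 1656 CPM at 24 h and 183 and 160.3 CPM at 48 h, against 23.8 and 95.9 CPM in controls. The list's median log2 fold change was -0.16 in peritumoral hepatocytes, 2.25 at 24 h and 0.71 at 48 h. Over all genes with TMM factors, 21.3% were higher at 24 h and 25% at 48 h.

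The hormone carrier Serpina6, which is corticosteroid-binding globulin and no longer inhibits proteases, showed the largest fall after TAA among the serpin genes that passed the test. It lies on chromosome 12, 103646630 to 103657212, minus strand. It had 15.6 and 13.1 CPM at 24 h and 9.23 and 6.86 CPM at 48 h, against 489.5 and 356 CPM in control livers. No treated library came near a control, and levels were 29.5-fold lower at 24 h and 52.6-fold lower at 48 h (log2 fold change -4.88 ± 0.24 and -5.72 ± 0.25, adjusted p = 0.000271 and 0.000113). Scaled by library totals alone, the log2 fold changes were -4.37 and -5.00. In peritumoral hepatocytes it stood at 148, 174 and 151 CPM, against 37.4, 33.0 and 119 CPM in untreated hepatocytes, without overlap. That difference missed the threshold (1.32 ± 0.49, adjusted p = 0.0870) and passed without untreated replicate 3 (2.15, adjusted p = 0.0171) and by DESeq2 (1.34, adjusted p = 0.0256).

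Serpina6 is known to be higher in female than in male rodent liver, and the 4 female-biased liver genes A1bg, Cyp2b9, Sult2a1 and Sult3a1, a list added after values were seen, fell at both times too. Their sum was 206 and 330.0 RPM at 24 h and 671 and 418 RPM at 48 h, against 6696 and 1919 RPM in controls. In hepatocytes their sum was 7.32, 1459.8 and 172 RPM in the peritumoral libraries, against 0.281, 0.0593 and 0.246 RPM in untreated ones. The part of these genes in the Serpina6 result was not tested.

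Serpina7, the second carrier, is thyroxine-binding globulin and lies on the X chromosome. It had 42.6, 6.0 and 10.4 CPM in peritumoral hepatocytes, against 73.0, 62.6 and 259 CPM in untreated hepatocytes, so that the groups did not overlap. The log2 fold change of -2.74 ± 0.89 did not pass (adjusted p = 0.0592), but did without peritumoral replicate 1 (-4.01, adjusted p = 0.0198) and by DESeq2 (adjusted p = 0.00258). In livers it had 19.1 and 18.8 CPM at 24 h and 5.35 and 10.2 CPM at 48 h, against 6.59 and 16.6 CPM in controls. These differences did not pass (0.70 ± 0.45 and -0.57 ± 0.46), but a single control library decided each, since the 24 h one passed without control replicate 2 (1.51, adjusted p = 0.0384) and the 48 h one without control replicate 1 (-1.13, adjusted p = 0.0485).

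Of the 7 Serpina genes outside the Serpina1 and Serpina3 groups, Serpina6 and Serpina7 among them, 4 fell and 1 rose at each time after TAA, and 2 fell at 24 h and 3 at 48 h with library totals alone. Over all genes with TMM factors, 20.5% were lower and 21.3% higher at 24 h, and 23.9% and 25% at 48 h. None of the 7 passed in peritumoral hepatocytes, though Serpina11 did without peritumoral replicate 2 (0.94, adjusted p = 0.0249). Serpina12 (vaspin, best known as an adipose hormone whose human form inhibits a kallikrein) had 2.79 and 4.54 CPM at 24 h and 4.37 and 2.0 CPM at 48 h, against 59.1 and 22.8 CPM in control livers. Both times lay below both controls (log2 fold change -3.48 ± 0.57 and -3.70 ± 0.58, adjusted p = 0.00429 and 0.00263). Without control replicate 1, the higher control, the values were -2.64 and -2.91, and without 48 h replicate 1 the 48 h value was -4.35. Serpina11, whose function is not well established, had 85.2 and 96.3 CPM at 24 h and 38.0 and 35.4 CPM at 48 h, against 141 and 156 CPM in controls. It fell at both times (-0.71 ± 0.12 and -2.02 ± 0.13), at 24 h not with library totals alone (-0.20, and -1.31 at 48 h), and 40.8% of its exon bases overlap a same-strand gene, Gm28577, with which it may share reads.

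Serpina10, the inhibitor of coagulation factor Xa that works with protein Z, fell at 48 h, to 177 and 161 CPM, against 341 and 307 CPM in controls (log2 fold change -0.94 ± 0.12, and -0.23 with library totals alone). Serpina5, the protein C inhibitor, was low everywhere but rose, with 3.3 and 3.09 CPM at 24 h and 1.32 and 2.13 CPM at 48 h, against 0.515 and 0.901 CPM in controls. With only 5 and 9 counts in controls, Serpina5 passed the count filter only through the TAA libraries. Its 24 h log2 fold change was 2.16 ± 0.42 (adjusted p = 0.00823). At 48 h it was 1.28 ± 0.44 (adjusted p = 0.0483), a call lost without either control, either 24 h library or 48 h replicate 2 (adjusted p between 0.0698 and 0.246) and by DESeq2 (adjusted p = 0.115). Serpina9, known in human from germinal centre B cells, had 1.10 and 2.13 CPM at 24 h, against 3.50 and 8.01 CPM in controls. Its fall of -1.82 ± 0.50 was lost without control replicate 2 (-1.12, adjusted p = 0.134) or 24 h replicate 1 (adjusted p = 0.148). Its 48 h value passed without control replicate 1 (-1.53, adjusted p = 0.0291).

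**Figure D4:**
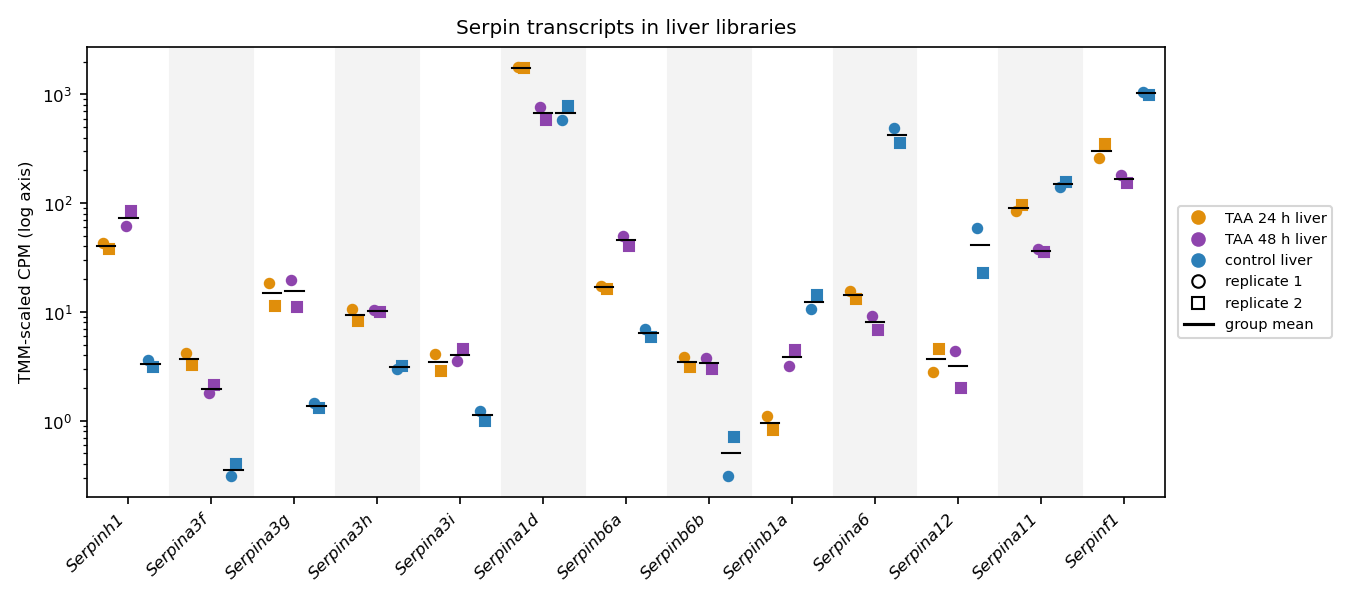
TMM-scaled CPM (y axis, log scale) of 13 serpin genes (x axis) in 2 livers at 24 h after TAA, 2 at 48 h and 2 controls, each replicate with its own symbol and lines at group means. Serpinh1 lies above the controls at both times, while Serpina6 lies below them, at 15.6 and 13.1 CPM at 24 h and 9.23 and 6.86 CPM at 48 h, against 489.5 and 356 CPM in controls.

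The Serpinb genes, whose products protect cells from their own or incoming proteases, gave 5 of 6 tested genes higher in peritumoral hepatocytes and none lower, where 19% of all genes were higher. Serpinb2, 1 of the 5, passed the count filter only through the peritumoral libraries. Serpinb1a, with 11, 11 and 9 counts in untreated libraries, also needed the peritumoral ones to pass it. After TAA 4 of 7 were higher at each time, where 21.3% of all genes were at 24 h and 25% at 48 h. Lower were 2 at 24 h and 1 at 48 h, where 20.5% and 23.9% of all genes were. Serpinb2, Serpinb6b and Serpinb9b passed the filter there only through the TAA libraries.

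Serpinb1a, an inhibitor of neutrophil elastase, cathepsin G and proteinase 3, went opposite ways. It had 14.1, 90.9 and 9.75 CPM in peritumoral replicates 1, 2 and 3, against 0.634, 0.638 and 0.707 CPM in untreated hepatocytes, and peritumoral replicate 2, the library with the highest bile duct sum, was far the highest. The part of bile duct cells in this value was not tested. The rise was 5.85 ± 1.02 on the log2 scale (adjusted p = 0.00911) and 4.20 without that library. In livers it had 1.10 and 0.825 CPM at 24 h and 3.21 and 4.47 CPM at 48 h, against 10.6 and 14.2 CPM in controls. It was lower at both times (-3.68 ± 0.32 and -1.69 ± 0.28, adjusted p = 0.000623 and 0.00326). The difference between the 2 kinds of injury was not tested, and stock and treatment cannot be told apart between them.

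Serpinb2, plasminogen activator inhibitor 2, had 5.38, 8.94 and 10.2 CPM in peritumoral hepatocytes, against 0.346, 0.116 and 0.0785 CPM in untreated hepatocytes (log2 fold change 5.40 ± 0.54, adjusted p = 0.00300, and 6.28 without untreated replicate 1). In livers it had 38 and 40 counts at 24 h and 5 and 21 counts at 48 h, against 0 and 1 counts in controls. The ratio to controls was 54.5 (95% exact interval 9.50 to 2180.4) at 24 h and 18.9 (95% exact interval 3.10 to 773) at 48 h, for counting error only. Its exons overlap those of Serpinb10 on the same strand (12.4% of its exon bases). The 24 h test passed (adjusted p = 0.00307) with a fitted log2 value of 5.52, and 4.65 or 8.19 without control replicate 1 or 2. The 48 h call (fitted 3.96, adjusted p = 0.0178) was lost without control replicate 1 (3.08), control replicate 2 (6.61) or 48 h replicate 2 (2.79).

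Serpinb6a, whose human counterpart inhibits cathepsin G, rose in all 3 comparisons with an untreated or control group. It had 54.5, 208 and 84.8 CPM in peritumoral hepatocytes, against 19.4, 17.9 and 9.81 CPM in untreated hepatocytes, and 17.4 and 16.4 CPM at 24 h and 50.3 and 40.7 CPM at 48 h, against 7.01 and 5.91 CPM in controls. No groups overlapped. The log2 fold changes were 2.88 ± 0.55, 1.39 ± 0.17 and 2.81 ± 0.18 (adjusted p = 0.0116, 0.00165 and 0.000197). Without peritumoral replicate 2 the first was 2.18, and without untreated replicate 2 its call was lost (adjusted p = 0.0514). Exons of other genes, among them Nqo2 and Ripk1 on the other strand, overlap 29.3% of its exon bases. The kit marks strand, but the strand setting used in counting is not given, so shared reads cannot be told apart.

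Serpinb6b had 8.95, 9.44 and 6.75 CPM in peritumoral hepatocytes, against 2.02, 2.61 and 5.02 CPM in untreated hepatocytes (log2 fold change 1.39 ± 0.38, adjusted p = 0.0358). That call was lost without any 1 peritumoral library, untreated replicate 1 or untreated replicate 2 (adjusted p between 0.0539 and 0.129) and with the replicate block (adjusted p = 0.0623). In livers the groups were well apart, at 3.89 and 3.09 CPM at 24 h and 3.79 and 3.0 CPM at 48 h, against 0.309 and 0.701 CPM in controls (log2 fold change 2.76 ± 0.42 and 2.71 ± 0.43, and 3.44 and 3.37 without control replicate 2). Controls held only 3 and 7 counts of Serpinb6b, which passed the count filter there only through the TAA libraries. Serpinb8, whose human counterpart inhibits furin, was tight in hepatocytes, with 8.35, 8.45 and 7.85 CPM in peritumoral libraries, against 3.11, 2.73 and 3.22 CPM in untreated ones, a rise of 1.44 ± 0.21 (adjusted p = 0.00582). Its fall at 24 h (-1.37 ± 0.44, adjusted p = 0.0454) was lost without control replicate 1 (-0.61), without any 24 h or 48 h library (adjusted p between 0.0593 and 0.192) and with library totals alone.

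Serpinb9, the granzyme B inhibitor of cytotoxic cells, passed in no comparison, with 18.9, 13.9 and 16.8 CPM in peritumoral hepatocytes, against 11.7, 10.8 and 12.6 CPM in untreated hepatocytes (0.50 ± 0.19, adjusted p = 0.0915). Its relative Serpinb9b, which stayed below 1 CPM on average in every group, had 15 and 10 counts at 24 h and 6 and 21 counts at 48 h, against 0 and 0 counts in controls. It was at least 5.82-fold higher at 24 h and at least 6.53-fold higher at 48 h, taking 3 counts over the control group as the floor.

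Markers of cells other than hepatocytes were also higher in peritumoral libraries. All 6 neutrophil markers, all 6 endothelial markers, 6 of 7 stellate and fibroblast markers, 5 of 6 bile duct markers, all 3 mesothelial markers and 4 of 5 macrophage markers rose there. Of all genes tested, 19% were higher. In peritumoral libraries the sums were 17.4 to 37.1 RPM for neutrophils, against 1.23 to 3.20 RPM in untreated ones. For endothelium they were 632 to 1079 RPM, against 108 to 189 RPM in untreated libraries, and for stellate cells and fibroblasts 630.1 to 1834 RPM, against 39.7 to 79.1 RPM. For macrophages they were 766 to 2059 RPM, against 108 to 211 RPM in untreated libraries, and for mesothelium 31.9, 155 and 18.1 RPM, against 1.07, 0.712 and 0.555 RPM. No lymphocyte marker passed the count filter there. The 6 hepatocyte markers summed to 103427, 75389 and 136203 RPM in peritumoral libraries, against 87870.3, 89542 and 90147 RPM in untreated ones, and none of them passed. In livers these 6 markers summed to 121366 and 136304 RPM at 24 h, against 170900 and 173545 RPM in controls. At 48 h they summed to 113931 and 118173 RPM. Their median log2 fold change was -0.92 at 24 h and -0.87 at 48 h. Tat and Ttr were lower at 24 h and Hnf4a and Tat at 48 h, and none of the 6 was higher. Of all genes, 20.5% were lower at 24 h and 23.9% at 48 h. The part of this hepatocyte marker drop in the serpin falls was not tested. The part of these other cells in the serpin rises was not tested, and in bulk RNA fewer cells of a type and less RNA per cell cannot be told apart.

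Plau and Plat, which turn plasminogen (Plg) into plasmin and which serpins such as Serpinb2 inhibit, rose after TAA. Plau had 16.8 and 16.1 CPM at 24 h and 35.6 and 25.3 CPM at 48 h, against 0.721 and 0.300 CPM in controls (log2 fold change 4.99 ± 0.36 and 5.87 ± 0.36). Plat had 8.07 and 21.0 CPM at 24 h and 29.3 and 41.8 CPM at 48 h, against 0.206 and 0.401 CPM in controls. The Plau receptor Plaur had 15.8 and 13.1 CPM at 24 h and 17.9 and 17.6 CPM at 48 h, against 0 and 0.501 CPM in controls. Their substrate went the other way, as Plg fell by 1.24 and 1.61 on the log2 scale and the plasma protein Vtn by 0.79 and 1.18, although with library totals alone Vtn was not called. In peritumoral hepatocytes Plau rose (2.01 ± 0.36, adjusted p = 0.0101), while Plat, Plaur, Plg and Vtn did not pass.

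Over the list of 21 serine proteases and fibrinolysis genes, 5 of 18 tested were higher and none lower in peritumoral hepatocytes (Elane, Gzma, Plau, Prtn3 and St14). Of all genes tested there, 19% were higher and 10.2% lower. After TAA 5 of 15 were higher (Plat, Plau, Plaur, Prtn3 and St14) and 9 lower (F2, Hgfac, Hpn, Klkb1, Masp2, Plg, Proc, Tmprss6 and Vtn) at each time. With library totals alone 8 were lower at 24 h and 6 at 48 h. Over all genes with TMM factors, 21.3% were higher and 20.5% lower at 24 h, and 25% and 23.9% at 48 h. Prtn3, a protease of neutrophil granules and a target of Serpinb1a, had 35.1, 10.7 and 70.2 CPM in peritumoral hepatocytes, against 0.115, 0.0580 and 0.471 CPM in untreated hepatocytes, and 5.58 and 8.32 CPM at 24 h and 1.40 and 1.80 CPM at 48 h, against 0.309 and 0.10 CPM in controls. The neutrophil markers S100a8 and S100a9, the 2 that could be tested in livers, rose at both times.

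Serpine2, protease nexin 1, inhibits thrombin and Plau and is a product of fibroblasts and glia. It rose beside tumours and did not pass after TAA. It had 7.26, 8.90 and 7.56 CPM in peritumoral hepatocytes, against 0.231, 0.290 and 0.0785 CPM in untreated hepatocytes (log2 fold change 5.20 ± 0.41, adjusted p = 0.00267). These levels came from 120, 215 and 131 counts in peritumoral libraries, against 4, 5 and 1 counts in untreated ones, so Serpine2 passed the count filter only through the peritumoral libraries and its fold is imprecise. The peritumoral values lie above all untreated ones. In livers it had 0.514 and 0.619 CPM at 24 h and 0.824 and 1.40 CPM at 48 h, against 0.824 and 0.601 CPM in controls (-0.32 ± 0.53 and 0.65 ± 0.49). With library totals alone the 48 h value was 1.35 and passed (adjusted p = 0.0429).

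Serpinh1, known as Hsp47, is a chaperone that folds procollagen in the endoplasmic reticulum and inhibits no protease. It lies on chromosome 7, 99345376 to 99353239, minus strand, and it rose in all 3 comparisons with an untreated group. It had 75.6, 57.6 and 38.4 CPM in peritumoral hepatocytes, against 7.15, 10.1 and 4.55 CPM in untreated hepatocytes. In livers it had 42.8 and 37.7 CPM at 24 h and 61.9 and 84.2 CPM at 48 h, against 3.61 and 3.10 CPM in controls. No groups overlapped, and the levels were 7.85-fold, 12-fold and 21.7-fold higher (log2 fold change 2.97 ± 0.38, 3.58 ± 0.21 and 4.44 ± 0.21, adjusted p = 0.00423, 0.000312 and 0.000121).

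Its clients rose too. All 7 collagen genes of the list (Col1a1, Col1a2, Col3a1, Col4a1, Col4a2, Col5a1 and Col6a1) were higher in peritumoral hepatocytes, at 24 h and at 48 h, with median log2 fold changes of 5.47, 2.76 and 4.34. Col1a1 had 177, 494 and 61.0 CPM in peritumoral hepatocytes, against 2.31, 3.71 and 2.36 CPM in untreated hepatocytes. In livers it had 30.3 and 33.6 CPM at 24 h and 221 and 368 CPM at 48 h, against 3.19 and 1.00 CPM in controls. Among stellate and fibroblast markers, which include Col1a1 and Col3a1, 6 of 7 rose at 24 h and 7 of 7 at 48 h, and their sum was 426 and 411 RPM at 24 h and 1259 and 1753 RPM at 48 h, against 129.8 and 70.2 RPM in controls. Of 5 macrophage markers 3 rose at 24 h and 5 at 48 h, of 6 endothelial markers 3 and 4, and of 2 platelet markers both at each time. The share of all genes higher was 21.3% at 24 h and 25% at 48 h. Macrophage markers summed to 284 and 211 RPM at 24 h and 637 and 411 RPM at 48 h, against 73.7 and 36.6 RPM in controls, and endothelial markers to 303 and 224 RPM at 24 h and 369 and 269 RPM at 48 h, against 112 and 95.5 RPM in controls. The part of these cells in the Serpinh1 values was not tested.

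Serpinf1, pigment epithelium-derived factor, is a secreted anti-angiogenic serpin that inhibits no protease. It had 263 and 347 CPM at 24 h and 183 and 152 CPM at 48 h, against 1055 and 990.1 CPM in control livers. The fall was -1.75 ± 0.18 and -2.61 ± 0.19 on the log2 scale (adjusted p = 0.000998 and 0.000279), without overlap, and -1.24 and -1.90 with library totals alone. In hepatocytes the groups overlapped, with 676, 158 and 499.5 CPM in peritumoral libraries, against 377, 359.8 and 738 CPM in untreated ones (-0.15 ± 0.55, adjusted p = 0.867).

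Serpini1, neuroserpin, an inhibitor of Plat known from neurons, was low, with 1.47 and 1.51 CPM at 24 h and 2.55 and 2.73 CPM at 48 h, against 0.824 and 0.300 CPM in controls. With only 8 and 3 counts in controls, Serpini1 passed the count filter only through the TAA libraries. It rose at 48 h (2.22 ± 0.46, adjusted p = 0.00753, and 3.06 or 1.63 without control replicate 1 or 2). At 24 h it did not pass (1.40 ± 0.48, adjusted p = 0.0541), though it did without control replicate 1 (2.27, adjusted p = 0.0358).

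Serpini2, called pancpin for its expression in pancreas, followed single libraries and not the groups. It had 0 and 0 counts at 24 h and 33 and 177 counts at 48 h, against 83 and 0 counts in controls. The libraries with Serpini2 are the 3 in which pancreas transcripts such as Pnlip and Ctrb1 were high, and Pnlip had 0.220 and 0.0687 CPM at 24 h and 407 and 2209 CPM at 48 h, against 1922 and 14.2 CPM in controls. Over the 6 hepatocyte libraries Serpini2 summed to 1 count.

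**Figure D5:**
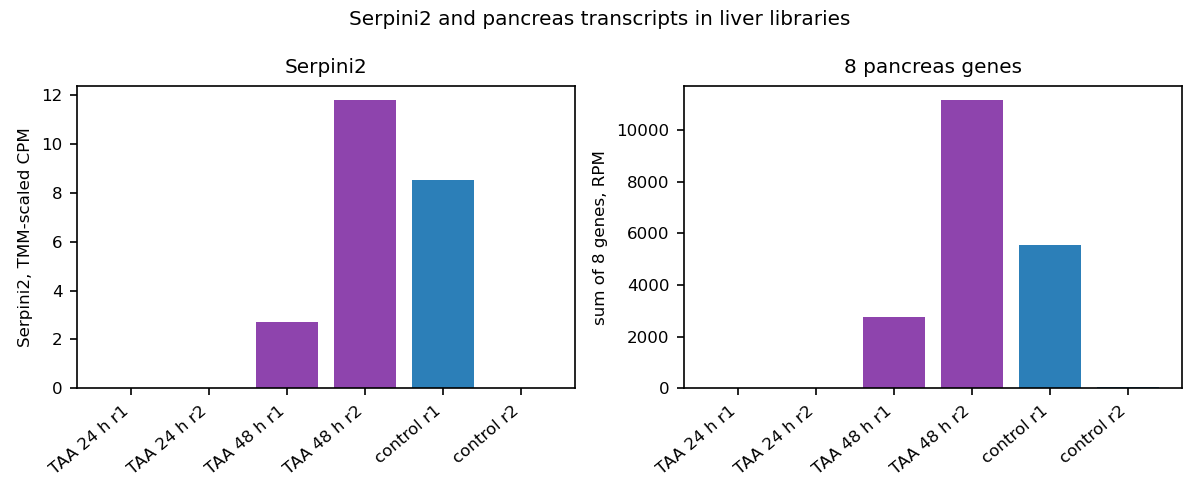
Serpini2 level (left, y axis, TMM-scaled CPM) and summed RPM of 8 pancreas genes (right, y axis) in the 6 liver libraries (x axes, 1 bar per library). Bars are visible for both in the same 3 libraries, both 48 h replicates and control replicate 1.

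Between the 2 times after TAA, 3 serpin genes were higher at 48 h than at 24 h and 7 lower, of 34 tested, where 4.96% and 2.36% (7.33% together) of all genes were. The serpin median log2 fold change was -0.66, against 0.01 over all genes. Serpinb1a, Serpinb6a and Serpinh1 were the 3 higher ones (1.99 ± 0.32, 1.43 ± 0.17 and 0.86 ± 0.18). The 7 lower ones were Serpina1a, Serpina1d, Serpina1e, Serpina3n, Serpina10, Serpina11 and Serpinf1, from -1.39 for Serpina1d to -0.71 for Serpina10. These calls are fragile: leaving out 1 of the 6 libraries gave 0 to 4 higher and 0 to 10 lower, and library totals alone gave 3 higher and 4 lower. Each of the 10 calls was lost without at least 3 of the 4 treated libraries, and Serpinh1, for example, had adjusted p between 0.0979 and 0.193 without 1 of them. Libraries of these 2 groups also entered the comparisons with controls.

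The remaining partner lists gave mixed counts. Of 6 cysteine proteases, which Serpina3g and some Serpinb products inhibit, Casp1, Ctsk and Ctss were higher and Ctsl lower in peritumoral hepatocytes. At 24 h Ctsk and Ctss were higher, and at 48 h Casp1, Casp8, Ctsk and Ctss were, with none lower. The share of all genes higher was 19% in peritumoral hepatocytes, 21.3% at 24 h and 25% at 48 h. Of 5 receptors that clear serpin complexes, none passed in peritumoral hepatocytes. Lrp1 fell at both times after TAA (-0.85 ± 0.17 and -0.67 ± 0.17), and Sort1 rose at 48 h. With library totals alone the Lrp1 fall was called at neither time, and the Sort1 rise at both.

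The members that passed the test in none of the 4 comparisons were Serpina3a, Serpina3b, Serpina3k, Serpina3m, Serpina7, Serpinb7, Serpinb9, Serpinb10 and Serpini2. Serpina3m had 1433, 296 and 838 CPM in peritumoral hepatocytes, against 925, 739 and 346 CPM in untreated hepatocytes, with overlap (0.35 ± 0.61). Serpina3b, Serpinb7 and Serpinb10 never passed the count filter. In peritumoral against untreated hepatocytes they had 10 against 1, 18 against 1 and 20 against 1 counts in all, or ratios of 8.15 (95% exact interval 1.16 to 354), 14.7 (95% exact interval 2.32 to 612) and 16.3 (95% exact interval 2.61 to 676). Serpina3a had 82, 1 and 1 counts in peritumoral replicates 1, 2 and 3, against 4, 2 and 3 counts in untreated hepatocytes.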

How the data were processed

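The authors deposited raw counts per gene for 41128 genes and RPM for 17311 of them. The deposited RPM equal counts scaled by the library total in 100% of values (within 0.01 of a count), and the smallest summed count among them was 13. STAR and DESeq2, with the builds mm10 and GRCm38, are named in the submitters' processing notes, without versions. The sources used here give neither annotation nor strand setting.

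The count test was edgeR's quasi-likelihood F test (version 4.0.16, R 4.3.3), two-sided, on genes that passed filterByExpr at a minimum count of 10 and a summed count of 15, with TMM factors. P-values were adjusted over all genes by Benjamini and Hochberg, with 0.05 as the threshold. The SE given after ± beside a log2 fold change was derived from this test. It is the absolute fold change on the log2 scale divided by the square root of the F statistic. Hepatocytes (6 libraries) and livers (6 libraries) had a fit each. Alternatives used RLE or no factors, other filters, DESeq2 1.42.0, limma 3.58.1 on the log2 scale with 0.5 or 0.1 added to the RPM, other sets of libraries, the replicate number as a block and each library left out. Scripts were tested on simulated data. Members, lists and the rule for named genes (an adjusted p under 0.05 in 1 of the 4 comparisons with at least 1 CPM on average in some group, plus the best known of each role) were chosen with earlier results of these data known. The pancreas and sex-biased lists were added after values were seen, and Serpina3a, Serpina3b, Serpina3m, Serpinb7, Serpinb9, Serpinb9b, Serpinb10 and Serpini2 are given beyond the rule. Gene positions and exon lengths came from GENCODE M21, which held 97.9% of the IDs, and promoters from RefSeq. Results for 1 member and 1 receptor gene are not reported here, although counts include them. Intervals and floors cover counting error only.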

Additional observations from a re-analysis of the deposited data

How the results depend on the processing

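Numbers of serpin genes called were within 1.5 times the reported number under RLE factors, no count filter, the fit of only the 4 livers compared and the replicate block (10 higher and 0 lower in peritumoral hepatocytes, 13 and 7 at 24 h, 11 and 12 at 48 h, 2 and 7 for 48 h against 24 h). Titles only number the libraries, so whether the numbers pair them is not known. Deviations of same-numbered peritumoral and untreated libraries from their group means had correlations across genes of -0.25, 0.20 and 0.11, which cannot decide it. Lower calls in peritumoral hepatocytes, 0 as reported, were 2 by DESeq2, 1 by limma with either pseudocount and 2 with all 12 libraries in 1 fit. At 24 h, 4 genes were lower without factors, by limma with either pseudocount and with all 12 libraries. At 48 h, 5 were lower under those same 4 settings, and 7 were higher with a minimum count of 50. For 48 h against 24 h, 4 were lower without factors and by limma on log2(RPM + 0.1), 11 by DESeq2 and 0 with all 12 libraries, which also left 0 higher. Leaving out 1 library gave 5 to 13 higher and 0 to 1 lower in peritumoral hepatocytes, 11 to 13 and 5 to 7 at 24 h, 9 to 12 and 8 to 15 at 48 h, and 0 to 4 and 0 to 10 for 48 h against 24 h. At 48 h Serpina1d turned from -0.02 to 0.70 without factors and by limma with either pseudocount, and Serpina1e from -0.65 to 0.0654, 0.0655 and 0.0657 under the same 3 settings, which all use library totals. The causes of the other moves were not tested. Rises under 3 counts in a library (0.162 to 0.311 RPM) could not be seen at this depth.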
